A study of Mus musculus with 10 samples.

Results

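Chromatin accessibility with and without the Npm1c allele was compared in mouse haematopoietic stem and progenitor cells (HSPCs), over both states of the Flt3 gene. ATAC-seq, which marks open chromatin by transposase insertion, had been run on lineage-negative bone marrow cells of C57BL/6 mice, and the deposited data are lists of peaks. The 4 libraries with the allele were 2 of Npm1c mice (Npm1flox-cA/+;Mx1-Cre+) and 2 of double mutant mice, labelled DM (Npm1flox-cA/+;Flt3ITD/+;Mx1-Cre+). The 4 libraries without it were 2 of WT mice and 2 of Flt3-ITD mice (Flt3ITD/+). No Cre is named for WT and Flt3-ITD mice, so each difference given here is that of the allele together with Mx1-Cre, a Cre recombinase under an interferon-inducible promoter that acts in blood and in other tissues. The sources used here do not give how the Cre was induced, how old the mice were or how many mice stand behind a library. The labels give a replicate number without naming an animal, so p-values measure the spread between these libraries. The series lists 10 samples, of which 2 neutrophil samples were not analysed here.

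Peaks of the 8 libraries on chromosomes 1 to 19 and X were merged where they overlapped by 1 bp or more, and a merged region counted as called in each library with a peak there. Of 103446 merged regions, 161 (0.156%) were called in all 4 libraries with the Npm1c allele and in none without it. Another 211 regions (0.204%) were called in all 4 libraries without the allele and in none with it. A further 26169 regions were called in all 8 libraries, and for these the number of bases under peaks, here called the width, was compared. The calls themselves chose the 161 and 211 regions, so their presence and absence is a description.

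Nucleophosmin, the product of Npm1, is an abundant protein of the nucleolus that binds histones and helps assemble ribosomes. The c mutation adds a nuclear export signal at its end, so the mutant protein is held in the cytoplasm. In acute myeloid leukaemia this mutation goes with high expression of HOXA and HOXB genes and of their partner MEIS1, and it is often found together with FLT3 internal tandem duplications, which make that cytokine receptor signal without its ligand.

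The labelled cell type was checked against marker genes. Of 13 stem and progenitor markers, 11 had a peak in all 8 libraries. So did 3 of 6 neutrophil, 3 of 3 monocyte, 3 of 4 erythroid, 2 of 4 B cell and 3 of 4 stromal markers, but none of 3 T and NK cell and none of 3 mast cell markers. Ngp, Ly6g and Fcer1a had no peak in any library. A peak list carries no bases of the reads, so the alleles themselves could not be checked. The Npm1 gene held 2339 and 2368 bases under peaks in Npm1c, 1447 and 1456 in DM, 2414 and 2218 in WT and 1471 and 1520 in Flt3-ITD libraries, with a log2 difference of 0.02 ± 0.12 (SE) between libraries with and without the allele (adjusted p = 0.916). The DM and Flt3-ITD libraries were the 4 lowest, and libraries with and without the allele overlapped. Lists held 62554 ± 5351 peaks with the allele and 60096 ± 16152 without it (SD, n = 4 each), and the exact two-sided permutation p over 70 relabellings was 0.857 (adjusted p = 1). The peaks covered 30.0 to 43.2 Mb with the allele and 24.2 to 50.2 Mb without it, so the groups overlapped. The sources used here give no read numbers, so the depth behind a list is unknown, and the lists of WT replicate 1 and Flt3-ITD replicate 1 were the longest and the shortest of the 8.

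The promoters below show where some of the regions described next lie. Each is the RefSeq window of GRCm38.p6 from 250 bases before to 50 bases after the annotated start, printed 5′ to 3′ on the gene's own strand, and capitals mark the letters of a searched motif. The Hoxa10 window lies wholly inside a region that was wider with the allele and the Gata2 window wholly inside one that was narrower, while 296 of the 300 bases of the Gp9 window lie in a region called only without it. The other windows reach past their regions, with 60 bases of the Hoxa9 window in a wider region, 87 of the Adgrl3 window in a region called only with the allele and 68 of the Gp1bb window in a region called only without it.
Hoxa10 promoter, chr6:52234890-52235189, minus strand: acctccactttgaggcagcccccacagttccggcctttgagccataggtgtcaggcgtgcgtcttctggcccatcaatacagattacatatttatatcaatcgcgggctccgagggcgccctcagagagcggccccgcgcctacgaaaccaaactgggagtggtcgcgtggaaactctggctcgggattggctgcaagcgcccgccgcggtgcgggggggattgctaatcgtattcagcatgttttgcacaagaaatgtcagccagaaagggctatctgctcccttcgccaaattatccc
Hoxa9 promoter, chr6:52227321-52227620, minus strand: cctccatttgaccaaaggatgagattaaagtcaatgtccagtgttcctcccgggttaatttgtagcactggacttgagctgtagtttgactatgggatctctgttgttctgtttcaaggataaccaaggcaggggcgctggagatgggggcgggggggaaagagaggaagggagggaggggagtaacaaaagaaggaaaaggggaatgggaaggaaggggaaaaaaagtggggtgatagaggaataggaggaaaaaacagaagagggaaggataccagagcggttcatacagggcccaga
Adgrl3 promoter, chr5:81020502-81020801, plus strand: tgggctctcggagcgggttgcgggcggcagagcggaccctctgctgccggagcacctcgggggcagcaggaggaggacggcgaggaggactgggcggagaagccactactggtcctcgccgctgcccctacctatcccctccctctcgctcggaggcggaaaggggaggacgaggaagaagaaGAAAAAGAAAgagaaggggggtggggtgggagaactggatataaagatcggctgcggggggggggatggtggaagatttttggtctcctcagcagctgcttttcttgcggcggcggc
Gp9 promoter, chr6:87777820-87778119, plus strand: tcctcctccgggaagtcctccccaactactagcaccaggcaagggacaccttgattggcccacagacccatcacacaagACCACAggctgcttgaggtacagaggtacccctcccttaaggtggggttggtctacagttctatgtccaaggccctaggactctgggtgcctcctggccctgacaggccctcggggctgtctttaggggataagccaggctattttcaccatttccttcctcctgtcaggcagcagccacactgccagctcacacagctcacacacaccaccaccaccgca
Gp1bb promoter, chr16:18622354-18622653, minus strand: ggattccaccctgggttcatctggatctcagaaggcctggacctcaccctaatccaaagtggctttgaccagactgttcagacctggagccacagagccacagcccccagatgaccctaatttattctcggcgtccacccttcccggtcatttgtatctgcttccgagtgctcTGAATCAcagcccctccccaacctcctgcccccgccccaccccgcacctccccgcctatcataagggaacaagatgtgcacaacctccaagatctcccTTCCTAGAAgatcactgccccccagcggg
Gata2 promoter, chr6:88193641-88193940, plus strand: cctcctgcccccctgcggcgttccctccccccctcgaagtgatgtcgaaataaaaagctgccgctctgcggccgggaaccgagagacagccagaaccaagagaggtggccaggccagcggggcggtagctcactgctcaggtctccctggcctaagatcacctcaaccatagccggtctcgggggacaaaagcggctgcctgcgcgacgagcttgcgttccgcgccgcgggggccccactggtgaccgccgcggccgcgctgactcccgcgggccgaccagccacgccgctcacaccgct
None of the 11 searched motifs was found in the Hoxa10, Hoxa9 or Gata2 window. The Adgrl3 window held 1 interferon-stimulated response element (searched on both strands as 2 copies of GAAA separated by 2 bases), which 3.46% of all 32619 promoter windows hold, and which here lay outside the called region. The Gp9 window held, inside the region, 1 RUNX motif (TGTGGT or its reverse complement), found in 16.6% of all windows, and the Gp1bb window held 1 AP-1 motif (TGANTCA, in 7.85% of windows) and 1 STAT motif (TTC and GAA separated by 3 bases, in 8.34%), of which the AP-1 motif lay outside the called region and the STAT motif inside it.

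Among the 161 regions called only with the allele, those with the highest mean width percentile within their lists lay at Hspa1a, Hoxa10, Cdk5rap1, Tet2 and Actr3. The first, at chr17:34968018-34970039, overlapped the downstream end of Hspa1a, an inducible heat shock chaperone gene on the minus strand. It covered 1992 and 1484 bases in Npm1c and 951 and 1791 bases in DM libraries. Reads of Hspa1a and its near-identical copy Hspa1b could have been split by the authors' alignment, so this locus is uncertain. Inside Hoxa10, a homeobox gene of the stem cell and leukaemia programme, chr6:52231895-52233221 covered 895 and 1260 bases in Npm1c and 763 and 987 bases in DM libraries. This region lies 1730 bp from Mir196b. The WT and Flt3-ITD libraries had no peak in either of these regions, though they had peaks over the Hoxa10 promoter.

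Tet2, which encodes an enzyme that oxidises methylated cytosine, held 4 of the 161 regions, out of 23 merged regions assigned to the gene. The widest, chr3:133548684-133549707, lay 4059 bp from the gene and covered 512 and 657 bases in Npm1c and 331 and 777 bases in DM libraries, against none in WT and Flt3-ITD libraries. The other 3 were narrow, between 200 and 428 bases in every library with the allele. Adgrl3, Mx1, Nbas, Socs6 and Zfhx3 held 2 regions each. At Mx1, an interferon-induced gene, both lay beyond the same end of the gene, 805 and 3861 bp away, and covered 212 to 401 bases and 200 to 326 bases in the libraries with the allele. The Mx1-Cre transgene carries Mx1 promoter sequence, and reads from the transgene and from the gene's own promoter cannot be told apart here. Socs6, a suppressor of cytokine signalling, had its 2 regions 41170 and 13930 bp away, with 335 to 460 bases in each library with the allele. Further listed genes with 1 region each were Ifi27, another interferon-induced gene, Vcan, a matrix proteoglycan made by monocytes, and Tcf4, a transcription factor of plasmacytoid dendritic cells.

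Of the 211 regions called only without the allele, the highest width percentiles belonged to Cplx2, Npr1, Ak1, Rtkn and Efcc1. At Cplx2 (chr13:54302617-54303924) the Npm1c and DM libraries had no peak, against 1308 and 1132 bases in WT and 838 and 1160 bases in Flt3-ITD libraries. The regions at Npr1, Ak1, Rtkn and Efcc1 overlapped promoter windows and covered 237 to 1503 bases in the libraries without the allele. Ahdc1 and Cxxc5 held 3 regions each, and Gp9, Gse1, Ilrun, Ksr1, Mdga1, Rhof, Runx3, Sik1, Tcf3 and Trim47 held 2 each.

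Platelet and megakaryocyte genes held 5 of these 211 regions among the 193 merged regions of that list, a share of 2.59% beside 0.204% over all merged regions. In bulk libraries, fewer cells of a type and less accessibility per cell cannot be told apart, and this holds for each gene group below. Gp9, a subunit of the platelet receptor for von Willebrand factor, held 2 of its 5 regions. The region over its promoter, chr6:87777824-87778292, covered no bases in Npm1c and DM libraries, against 388 and 232 in WT and 416 and 301 in Flt3-ITD libraries. A region over the promoter of Gp1bb, another subunit of the same receptor, chr16:18621386-18622421, likewise covered none in Npm1c and DM libraries, against 885 and 341 bases in WT and 710 and 314 in Flt3-ITD libraries. The remaining 2 lay in Vwf, the ligand of that receptor, and 7724 bp from Zfpm1, a cofactor of GATA1. Other listed genes were Runx3 with 2 regions and Ptpn11, Prf1 and Runx1 with 1 each. No region passed a Fisher exact test on its own calls, since the smallest p that 4 against 4 allows is 0.0286, which adjusts to 1 over all merged regions.

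**Figure D1:**
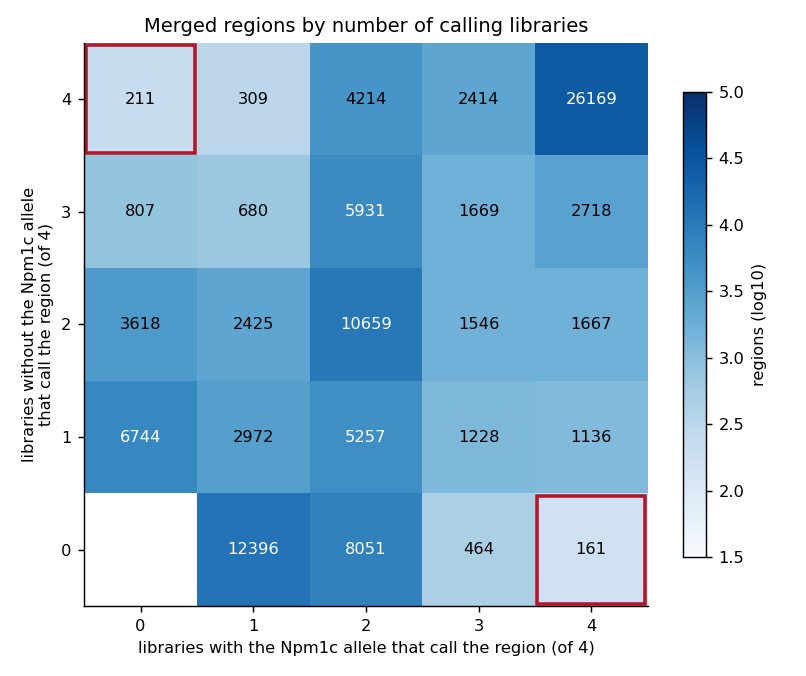
Merged regions by the number of libraries with the Npm1c allele (horizontal axis, 0 to 4) and without it (vertical axis, 0 to 4) that called them, with counts in the cells and colour on a log10 scale. The outlined cells hold the 161 regions called only with the allele and the 211 called only without it, beside 1136 called in 4 and 1 libraries and 309 called in 1 and 4.

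Fewer of these regions stayed on their side under stricter rules. With lists of equal length 9 of the 161 and 82 of the 211 regions were still called on 1 side only, and with peaks of at least 300 bp 16 and 42 were, while 128 and 132 were where peaks had to cover at least 50% of the region. Just outside the rule, 464 regions were called in 3 libraries with the allele and none without, and 1136 in 4 with it and 1 without. On the other side, 807 regions were called in none with it and 3 without, and 309 in 1 with it and 4 without. The same rule for the Flt3-ITD allele gave 585 regions (0.566%) called only with that allele and 8665 (8.38%) called only without it. Leaving out WT replicate 1 raised the count called only with the Npm1c allele to 1278, and leaving out Npm1c replicate 1 or DM replicate 1 gave 420 or 250. The count called only without the allele was 882 without Flt3-ITD replicate 1 and 332 without DM replicate 2.

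The 2 sets lay in different parts of the genome. Of the 161 regions called only with the allele, 46% had their midpoint inside a gene and 13% lay over 100 kb from any gene, and of the 211 called only without it 73% and 1.42% did. Promoter windows were overlapped by 2 of 156 regions (1.28%) called only with the allele and by 18 of 206 (8.74%) called only without it, chromosome 18 left out because no windows were given for it. Over all merged regions, 59.6% lay inside a gene, 5.2% over 100 kb away and 11.7% at a promoter window. The merged regions had a median width of 381 bp in the first set and 462 bp in the second, against 435 bp over all. Most were narrow within their own lists, with a median width percentile of 22.7 and 33.8.

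Within each Flt3 background the 2 sets were small parts of what differed. The 161 regions were 5.75% of the 2799 called in both Npm1c and in neither WT library, and 1.46% of the 11009 called in both DM and in neither Flt3-ITD library. The 211 regions were 3.26% of the 6480 missing from Npm1c but in both WT libraries, and 5.93% of the 3560 missing from DM but in both Flt3-ITD libraries. These counts are out of 103446 merged regions. Whether the 2 backgrounds shared more regions than unrelated lists would was not tested. Opposite patterns were as frequent in 1 direction, since 216 regions were missing in Npm1c against WT and present in DM against Flt3-ITD, while 6 showed the reverse. The 216 included regions at Mcl1, Irf8, Tyk2, Fos and Il2rb, named here after their values were seen. At Tyk2, a Janus kinase gene, chr9:21100458-21101127 covered no bases in Npm1c and 590 and 651 bases in WT libraries, and 279 and 263 bases in DM but none in Flt3-ITD libraries.

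Among the 26169 regions called in all 8 libraries, widths were compared on a log2 scale after each library was centred on its own median, with the Flt3-ITD allele as a second term (limma, Benjamini-Hochberg adjusted p < 0.05). With the Npm1c allele 867 regions (3.31%) were wider and 641 (2.45%) narrower, 1508 (5.76%) in all. At an unadjusted p under 0.05 there were 6762 (25.8%). In 1111 regions (4.25%) that passed, the 4 and 4 centred widths did not overlap, and without centring too they did not overlap in 575 of them (2.2%). Over all 26169 regions, called or not, 2663 (10.2%) did not overlap. The Flt3-ITD allele in the same fit moved 9065 regions (34.6%). Every library weighed on these counts: without WT replicate 2 they were 16 wider and 26 narrower, without WT replicate 1 they were 1527 and 723, and without any other single library 106 to 262 were wider and 160 to 275 narrower. Without centring 14 were wider and 55 narrower. A total of 41 regions (0.157%) passed with every library left out in turn.

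Several regions at the Hoxa genes were wider. Over the Hoxa10 promoter, chr6:52233328-52235342 covered 1837 and 1965 bases in Npm1c and 1653 and 1785 in DM libraries, against 594 and 346 in WT and 436 and 574 in Flt3-ITD libraries. Every library with the allele had over 1000 more bases there than any library without it, and the log2 shift was 1.95 ± 0.17 (SE, adjusted p = 0.00414). Over the Hoxa9 promoter, chr6:52225073-52227380 covered 1866 and 2248 bases in Npm1c and 1819 and 1934 in DM libraries, against 1341 and 801 in WT and 968 and 1040 in Flt3-ITD libraries. The groups did not overlap, and the log2 shift was 0.97 ± 0.14 (adjusted p = 0.0137). Both calls stood with each library left out in turn, and the Hoxa10 call also stood without centring (adjusted p = 0.0262), where Hoxa9 had 0.0603.

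Between these promoters, chr6:52228464-52231085 was wider by 0.79 ± 0.16 (adjusted p = 0.0292), and the region over the Hoxa3 promoter, chr6:52211233-52213927, by 0.60 (adjusted p = 0.0275). The Hoxa7 promoter region covered 2254 and 1868 bases in Npm1c and 1682 and 1288 in DM libraries, against 1205 and 301 in WT and 976 and 747 in Flt3-ITD libraries. Its shift of 1.31 did not pass the test (adjusted p = 0.0806), although the groups did not overlap. Of 9 regions nearest a Hoxa gene that were called in all 8 libraries, 9 had a positive shift and 4 passed the test as wider, beside 53.7% and 3.31% of all regions tested. Summed over the 26 merged regions of the Hoxa genes, peaks covered 19216 and 19489 bases in Npm1c and 17344 and 18851 in DM libraries, against 13079 and 8143 in WT and 9564 and 10874 in Flt3-ITD libraries. This sum was formed after the values were seen and did not overlap between the groups.

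**Figure D2:**
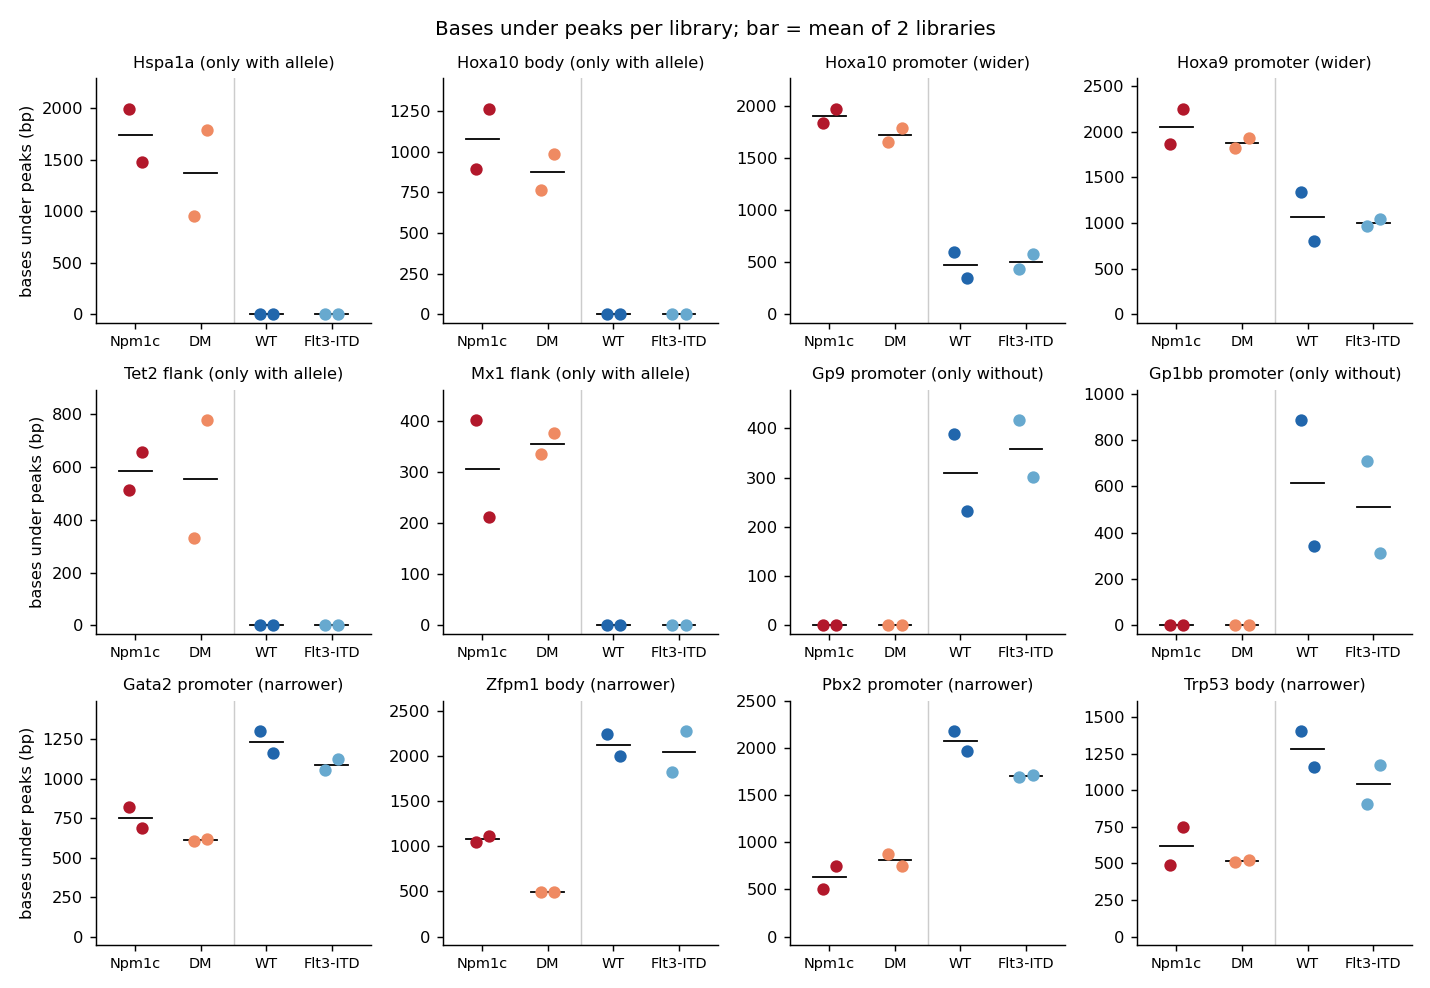
Bases under peaks (bp) at 12 regions in each library, with Npm1c and DM left of the grey line and WT and Flt3-ITD right of it, points for single libraries and a bar for the mean of 2. The groups do not overlap at any of the 12, which were picked from the named regions. Those called on 1 side only have no bases on the other side by the rule that chose them. Over all regions called in all 8 libraries, 10.2% did not overlap after centring. The Hoxa10 promoter region has 1653 to 1965 bases with the allele and 346 to 594 without it.

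The other largest widenings whose groups did not overlap after centring included regions at Hspa1b, App, Otogl, Cers6, Nucb2, Nap1l1, 14258 bp from Gcg, and at chr3:149393253-149394196 with no gene within 100 kb. The Hspa1b region, chr17:34954906-34956891, overlapped the downstream end of that minus-strand gene. It covered 1986 and 1399 bases in Npm1c and 529 and 1777 in DM libraries, against 327 and 322 in WT and 202 and 303 in Flt3-ITD libraries. It had the largest shift of all, 2.20 ± 0.33 (adjusted p = 0.0145, and 0.059 without WT replicate 2), with the doubt between the 2 gene copies given above. Over the Hspa1b promoter, chr17:34959358-34960470 shifted by 0.035 (adjusted p = 0.889). The region near Gcg, chr2:62459255-62461289, covered 1734 and 1661 bases in Npm1c and 1208 and 1404 in DM libraries, against 701 and 409 in WT and 383 and 339 in Flt3-ITD libraries. It was wider by 1.79 ± 0.15 (adjusted p = 0.00381) with no overlap, and so was the Otogl region by 1.40 ± 0.11 (adjusted p = 0.00381).

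Regions of listed genes were wider at the following loci. A region 25125 bp from Ifnar1, a subunit of the type I interferon receptor, covered 637 and 605 bases in Npm1c and 741 and 794 in DM libraries, against 301 and 425 in WT and 212 and 338 in Flt3-ITD libraries. It was wider by 1.19 ± 0.18 (adjusted p = 0.0145) and stayed so with each library left out in turn. In Cd34, a surface marker of progenitors, a region was wider by 1.03 ± 0.22 (adjusted p = 0.034, lost with any of 5 libraries left out). Regions at Tet2 (0.90 ± 0.14, adjusted p = 0.0168), Cd74 (0.83 ± 0.12, adjusted p = 0.0133), the feedback inhibitor Spry2 (0.83 ± 0.16, adjusted p = 0.0292) and the survival gene Bcl2 (0.64 ± 0.14, adjusted p = 0.0356) were wider too. Smaller widenings of 0.40 to 0.75 were measured at Mitf, Cd36, Hsf2, Mbd2, Cd2, Erg, Bcl11a, Gbp3, Id2, Adgre1 and Mmp8, each lost with 5 or more libraries left out in turn. So were the Spry2 and Bcl2 calls, with any of 6, while the Cd74 call was lost without WT replicate 2 and the Tet2 call without that library or Npm1c replicate 2. The region over the promoter of Cdkn2a, which encodes the nucleophosmin-bound tumour suppressor Arf, was wider by 0.68 ± 0.17 (adjusted p = 0.0493), but that call was lost with any library left out.

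Among the 10 largest narrowings were regions at Midn, Pak4, Macrod1, Lmnb2, Zswim5, Uqcr11, Scrt1 and 2 regions of Zfpm1, with shifts of -1.45 to -1.82 and no overlap of the groups after centring. Over the promoter of Pbx2, a DNA-binding partner of HOX proteins, chr17:34591359-34593587 covered 508 and 747 bases in Npm1c and 875 and 753 in DM libraries, against 2175 and 1966 in WT and 1688 and 1718 in Flt3-ITD libraries. The groups did not overlap, and the shift of -1.38 ± 0.14 (adjusted p = 0.0106) stood with each library left out in turn. Of the 62 named regions, 12 passed with every library left out in turn, and without centring 8 passed, among them those at Hoxa10, Gcg, Otogl, Gata2, Pbx2, Uqcr11 and Pak4. Without WT replicate 2 there were 12 of the 62, and without Npm1c replicate 2 there were 27.

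Transcription factors of the erythroid and megakaryocyte lineages were among the narrowed loci. In Zfpm1, chr8:122329215-122331636 covered 1047 and 1118 bases in Npm1c and 499 and 490 in DM libraries, against 2239 and 1997 in WT and 1816 and 2270 in Flt3-ITD libraries. Its shift was -1.47 ± 0.25 (adjusted p = 0.019, lost without WT replicate 2, DM replicate 1 or Flt3-ITD replicate 1). Another Zfpm1 region, chr8:122317705-122320027, shifted by -1.68 ± 0.25 (adjusted p = 0.0138), and one further region by -0.72 ± 0.16 (adjusted p = 0.0381). At Gata2, a transcription factor that maintains stem cells and mast cells, 3 regions were narrower. The one over the promoter printed above, chr6:88193273-88194572, covered 819 and 688 bases in Npm1c and 603 and 618 in DM libraries, against 1300 and 1161 in WT and 1054 and 1125 in Flt3-ITD libraries. The groups did not overlap there, and the shift was -0.74 ± 0.13 (adjusted p = 0.0208, lost with any of 6 libraries left out but 0.037 without centring). The other 2 shifted by -0.93 ± 0.14 (adjusted p = 0.015) and -1.0 ± 0.25 (adjusted p = 0.0487).

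Further narrowed listed loci were the endothelial and stem cell adhesion gene Esam (-1.18 ± 0.20, adjusted p = 0.0189), the platelet integrin gene Itgb3 (-0.80 ± 0.12, adjusted p = 0.0149) and Zap70, a T cell kinase gene (-1.23 ± 0.25, adjusted p = 0.0305). In the tumour suppressor gene Trp53, chr11:69584948-69586349 covered 489 and 751 bases in Npm1c and 513 and 526 in DM libraries, against 1402 and 1156 in WT and 909 and 1172 in Flt3-ITD libraries. The groups did not overlap, and the shift was -1.0 ± 0.14 (adjusted p = 0.0128, and 0.0513 without WT replicate 2). Chromatin regulators joined it, with Men1 at -0.76 ± 0.14 (adjusted p = 0.0238) and Dot1l at -0.69 ± 0.10 (adjusted p = 0.0137), whose products act on HOX genes. Dnmt3a, Tet3, Stat5a, Flt3l, Jund, Ly86, Ywhaz and a further region near Hspa1b were narrower too, with shifts of -0.37 to -0.82. These calls were lost with 6 or more libraries left out in turn, except that of Ly86, lost with 3. The Esam, Itgb3 and Dot1l calls were lost without WT replicate 2, the Zap70 call with any of 4 libraries left out and the Men1 call with any of 5. Flt3l encodes the ligand of FLT3, and Stat5a a signal transducer downstream of it.

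Wider and narrower regions also differed in place and base composition. Of the 867 wider regions 49.1% lay inside a gene, 11.6% over 100 kb from any gene and 10.9% at a promoter window. Of the 641 narrower regions 76.6% lay inside a gene, 0.468% over 100 kb away and 42.8% at a promoter window. All 26169 regions gave 65%, 2.64% and 35.9%. Chromosome 11, which held 7.46% of all these regions, held 3.23% of the wider and 17.5% of the narrower ones. This was not particular to it. Chromosomes 17 and 19 held 9.05% and 6.86% of the narrower regions, beside 4.5% and 3.08% of all, while chromosome 1 held 2.5%, beside 6.52%. The overlapped promoter windows had a median GC content of 52.2% in wider, 63.3% in narrower and 61.7% in all regions. Across the 9125 promoter regions, the Spearman correlation of a library's width deviation with GC content was -0.11 and -0.11 in Npm1c and 0.06 and 0.01 in DM libraries, against -0.07 and -0.01 in WT and 0.16 and 0.11 in Flt3-ITD libraries. These values share the same regions. Within each Flt3 background the libraries with the allele had the lower values, while over both backgrounds the groups overlapped. The part of base composition in the width shifts was not tested.

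Promoter windows in wider regions held the interferon-stimulated response element in 13 of 125 cases (10.4%), those in narrower regions in 6 of 360 (1.67%), and those in all regions in 339 of 12385 (2.74%). The PU.1 motif (GAGGAAGT) was in 11 of 125 (8.8%), 5 of 360 (1.39%) and 409 of 12385 (3.3%). Among windows under 55% GC, the first was in 12 of 69 (17.4%) in wider regions, in 4 of 44 (9.09%) in narrower regions and in 163 of 2765 (5.9%) in all regions. Genes whose promoter window in a wider region held the interferon element, at any GC content, were Cytip, Dpp4, Gbp3, Wls, Spp1, Ncoa7, Gpr18, Selenop and 4 unnamed or predicted genes. The Dpp4 region, chr2:62411090-62412817, covered 1555 and 1646 bases in Npm1c and 1136 and 1349 in DM libraries, against 1478 and 1085 in WT and 471 and 571 in Flt3-ITD libraries, so its groups overlapped before centring and did not after it (0.83 ± 0.14, adjusted p = 0.0189). Of the other motifs, RUNX was in 18.4% of windows in wider, 10.6% in narrower and 12.1% in all regions, and the E-box (CACGTG) was in 6.4%, 10.3% and 10.8%. The GATA motif (AGATAA) was in 5.6%, 6.67% and 5.59%, shares that were not matched for GC content. A match describes letters in the window and not binding.

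**Figure D3:**
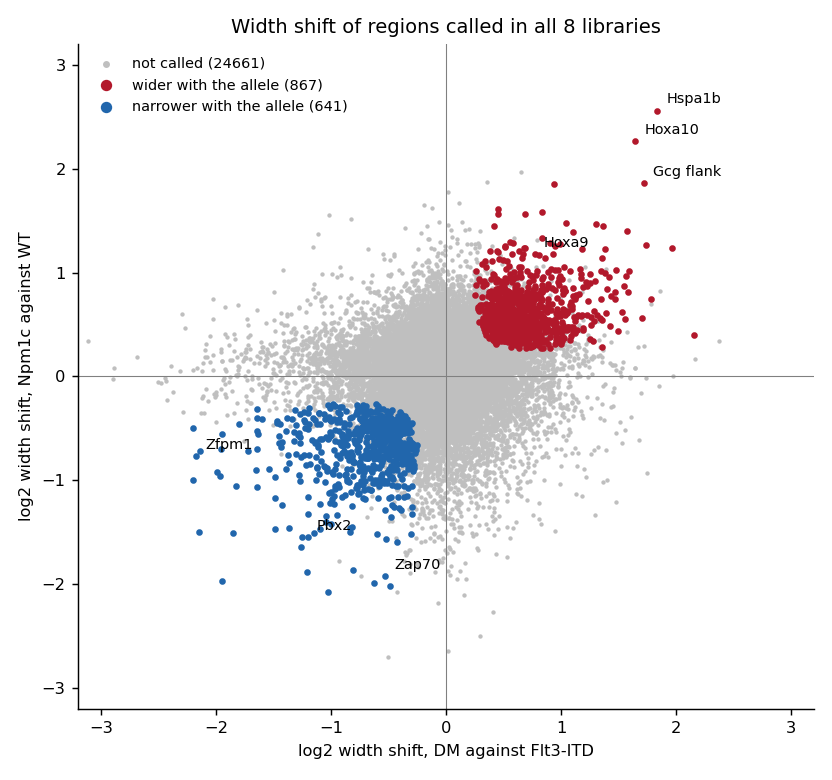
Log2 width shift in DM against Flt3-ITD (horizontal) and in Npm1c against WT (vertical) for the 26169 regions called in all 8 libraries, after centring. Red and blue points are the 867 wider and 641 narrower regions of the joint fit, and Hspa1b, Hoxa10 and the region near Gcg stand highest in Npm1c against WT among the red ones.

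The width shift was also compared between the backgrounds. It differed between DM against Flt3-ITD and Npm1c against WT in 2546 regions (9.73%), of which 670 (2.56%) had the higher shift in DM and 1876 (7.17%) the lower. This count was above the 1508 regions of the joint comparison, and 60 regions (0.229%) passed both tests. Without Npm1c replicate 1 the counts were 322 and 512, and without WT replicate 1 they were 224 and 579. With a separate term per background in a fit to all libraries, which share 1 estimate of the spread, each background gave 3115 changed regions (11.9%). Of all regions, 418 (1.6%) changed in both and in the same direction and 114 (0.436%) in both and in opposite directions. A Zfpm1 region (chr8:122329215-122331636) shifted by -2.17 in DM against Flt3-ITD and by -0.77 in Npm1c against WT, and the difference of -1.40 passed the test (adjusted p = 0.00463). The region near Zap70 went the other way, with -0.53 and -1.92 (difference 1.39, adjusted p = 0.00466).

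Bases under peaks were then summed per gene over all merged regions assigned to it, and log2(bases + 200) was compared in the same way for 16209 genes. The sums include the 161 and 211 regions that the calls chose. Genes holding such regions include Hspa1a, Hoxa10, Tet2, Mx1, Gp9 and Gp1bb, and their p-values are not independent of that choice. With the allele 855 genes (5.27%) were higher and 584 (3.6%) lower, 1439 (8.88%) in all, beside 7034 (43.4%) moved by the Flt3-ITD allele. At an unadjusted p under 0.05 there were 4829 (29.8%). Groups did not overlap after centring in 1887 genes (11.6%), 978 of them called (6.03%), and 342 (2.11%) were called and did not overlap before centring either. Without WT replicate 2 the counts were 126 and 65, without Npm1c replicate 2 they were 121 and 81, and without centring 55 and 63. In all 141 genes (0.87%) passed with every library left out in turn. As separate terms of a fit to all libraries, Npm1c against WT gave 4191 genes (25.9%) and DM against Flt3-ITD 3520 (21.7%). Of these, 696 (4.29%) were called in both in the same direction and 275 (1.7%) in opposite directions. The difference between the backgrounds passed in 3626 genes (22.4%), higher in DM in 1993 (12.3%) and lower in 1633 (10.1%), and 124 (0.765%) passed both tests. Of the 59 genes named by rule, 13 passed with every library left out in turn.

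Hspa1a covered 1992 and 1484 bases in Npm1c and 1191 and 2011 in DM libraries and none in WT and Flt3-ITD libraries, and led the 10 genes with the largest rises whose groups did not overlap after centring. The other 9 were Iqck, Dclk1, Tlr7, Frmpd4, Khdc1a, Itgb8, Gm5127, Rgs21 and Stac. Rgs21, a regulator of G protein signalling, covered 2151 and 2676 bases in Npm1c and 537 and 818 in DM libraries, against 949 and 346 in WT and none in Flt3-ITD libraries. It rose by 1.95 ± 0.19 (adjusted p = 0.00673), although its groups overlapped before centring.

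The HOX genes and cofactors split. Of 22 genes tested, 3 (13.6%, beside 5.27% of all genes) were higher, Hoxa10 (1.29 ± 0.14, adjusted p = 0.00821), Hoxa9 (0.89 ± 0.17, adjusted p = 0.0273) and Meis1 (0.47 ± 0.11, adjusted p = 0.0402). Hoxa10 covered 5783 and 6262 bases in Npm1c and 5201 and 5310 in DM libraries, against 2500 and 1950 in WT and 1995 and 2581 in Flt3-ITD libraries, with no overlap. Meis1 covered 13571 and 17115 bases in Npm1c and 7403 and 7608 in DM libraries, against 15164 and 10895 in WT and 4471 and 5095 in Flt3-ITD libraries. Its groups overlapped, and its call and that of Hoxa9 were each lost with any of 7 libraries left out. Pbx2 (-1.16 ± 0.13, adjusted p = 0.0102) and Hoxb8 (-1.03 ± 0.25, adjusted p = 0.0455) were lower, Hoxb8 with no bases in Npm1c and DM libraries, against 335 and 475 in WT and none and 215 in Flt3-ITD libraries. The Hoxb8 call was lost with any of 7 libraries left out and without centring (adjusted p = 0.124), while that of Pbx2 stood with each library left out. The lower genes were 9.09% of the list, beside 3.6% of all genes. The list's median shift was -0.01, beside 0.01 over all genes tested.

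Platelet and megakaryocyte genes had the lowest median of the 18 lists, -0.65, with 5 of 20 genes lower (25%, beside 3.6% of all genes) and none higher. The lower ones were Gp1ba (-1.61 ± 0.27, adjusted p = 0.0199), Gp9 (-1.34 ± 0.18, adjusted p = 0.0123), Zfpm1 (-1.20 ± 0.19, adjusted p = 0.0171), Treml1 (-1.20 ± 0.27, adjusted p = 0.0399) and Gp1bb (-1.12 ± 0.24, adjusted p = 0.0369). Gp9 covered 841 and 838 bases in Npm1c and 461 and 522 in DM libraries, against 2285 and 1845 in WT and 1858 and 1998 in Flt3-ITD libraries, and its call stood with each library left out. Its values stayed apart in either background, but 2 of its 5 regions were chosen for being called only without the allele. The Gp1bb call was lost with any of 7 libraries left out, the Treml1 call with any of 6, the Gp1ba call with any of 5 and the Zfpm1 call with any of 3. Gp1ba, the main ligand-binding subunit, covered 389 and 435 bases in Npm1c and none in DM libraries, against 1174 and 1069 in WT and 578 and 830 in Flt3-ITD libraries. Itga2b, the partner of Itgb3, had a difference of -0.41 (adjusted p = 0.0515) and Pf4 one of -0.62 (adjusted p = 0.248).

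Erythroid genes had a median of -0.50, with 3 of 27 lower (11.1%, beside 3.6% of all genes) and none higher. Rhd, a red cell membrane gene, covered 1671 and 1996 bases in Npm1c and 853 and 900 in DM libraries, against 5026 and 4341 in WT and 2587 and 3532 in Flt3-ITD libraries. The groups did not overlap, and it fell by 1.39 ± 0.15 (adjusted p = 0.00901), a call that stood with each library left out. Gfi1b, which encodes a transcriptional repressor that acts within the erythroid and megakaryocyte lineages, had a log2 difference of -0.99 ± 0.24 (adjusted p = 0.0491, lost with any of 7 libraries left out). Zfpm1 belongs to both lists. Among erythroid cell markers, the globin gene Hbb-bt covered 5107 and 5318 bases in Npm1c and 238 and 362 in DM libraries, against 2283 and 2119 in WT and none and 252 in Flt3-ITD libraries. Klf1, an erythroid transcription factor gene, covered 2270 and 2426 bases in Npm1c and 823 and 956 in DM libraries, against 2896 and 2771 in WT and 2190 and 2860 in Flt3-ITD libraries. The anion exchanger gene Slc4a1 covered 621 to 2173 bases with the allele and 1318 to 2279 without it. Klf1 did not pass the test (-0.75, adjusted p = 0.116), and Hbb-bt had more bases in Npm1c than in WT libraries. The part of erythroid cells in these results was not tested.

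Stem and progenitor genes had 3 of 25 higher, Hoxa9, Meis1 and Erg (0.44 ± 0.11, adjusted p = 0.0448), and 3 lower, Gata2 (-0.81 ± 0.13, adjusted p = 0.0181), Esam (-0.70 ± 0.14, adjusted p = 0.0301) and Procr (-1.21 ± 0.28, adjusted p = 0.0416). Each direction was 12% of the list, beside 5.27% of all genes higher and 3.6% lower. Procr, the endothelial protein C receptor used to isolate stem cells, covered 235 and 278 bases in Npm1c and 686 and 687 in DM libraries, against 2133 and 1310 in WT and 1174 and 868 in Flt3-ITD libraries. Gata2 covered 3767 and 3476 bases in Npm1c and 2976 and 2492 in DM libraries, against 7744 and 6489 in WT and 4841 and 4569 in Flt3-ITD libraries. Neither gene's groups overlapped, though the Procr call was lost with any of 7 libraries left out and the Gata2 call without Npm1c replicate 2 or WT replicate 2. The Erg call was lost with any of the 8 libraries left out and the Esam call with any of 7. Mast cell and basophil genes had 3 of 13 lower (23.1%), Gata2, Cma1 and Il4, and 1 higher (7.69%), Mitf. The Il4 and Mitf calls were each lost with any of 7 libraries left out. The mast cell markers together covered 272 to 2769 bases with the allele and 200 to 2747 without it, with Fcer1a at 0 in all libraries.

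**Figure D4:**
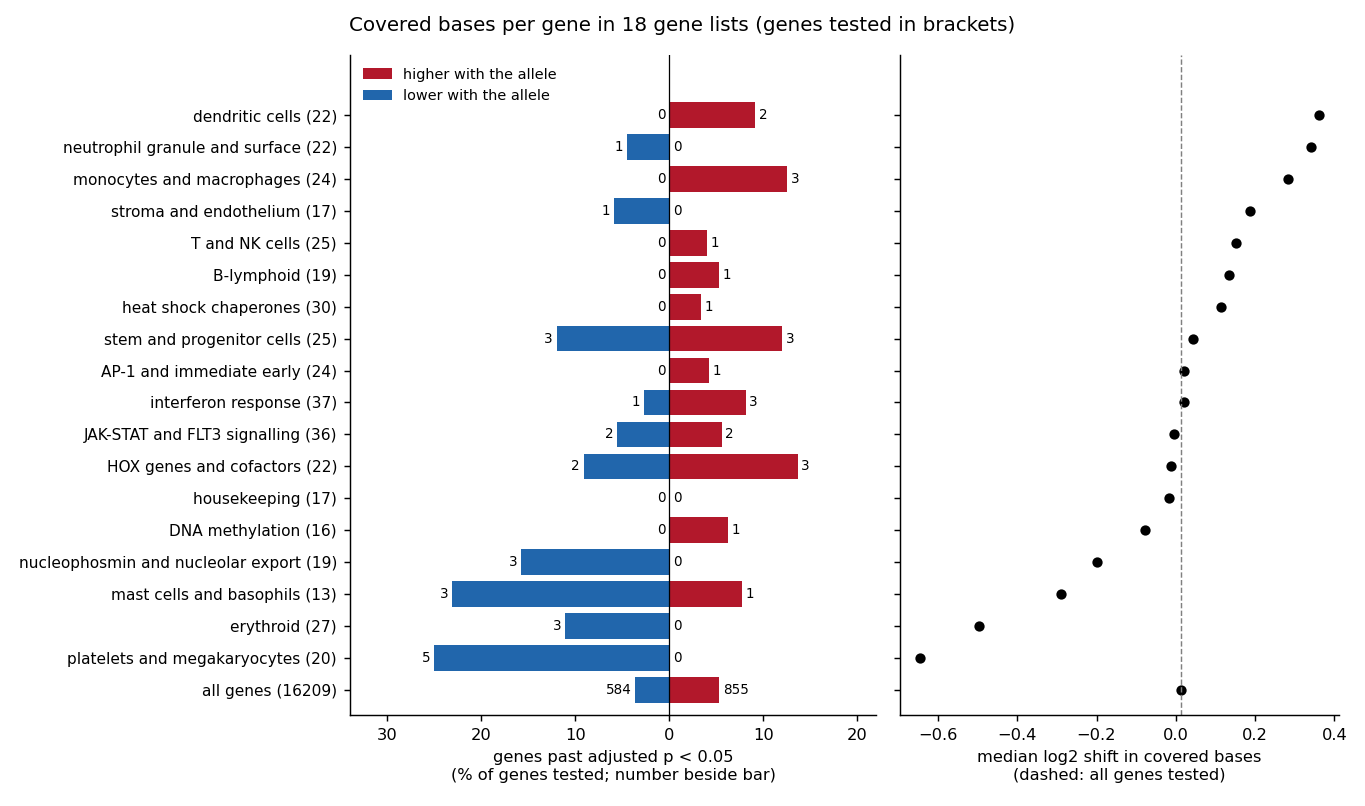
Left, share of the tested genes of each list that passed the test, higher with the allele to the right in red and lower to the left in blue, with the number of genes beside each bar. Right, the list's median log2 shift in covered bases, which ran from -0.65 for platelets and megakaryocytes to 0.36 for dendritic cells, with a dashed line at 0.01 for all genes.

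Over all genes, 5.27% were higher and 3.6% lower. Dendritic cell genes had the highest median, 0.36, with 2 of 22 higher (9.09%) and none lower. Cd74, the invariant chain of MHC class II, covered 2649 and 2424 bases in Npm1c and 9511 and 11840 in DM libraries, against 2419 and 1603 in WT and 2595 and 2563 in Flt3-ITD libraries. It stood far above the rest in DM libraries and overlapped between Npm1c and the others, and its difference of 1.18 ± 0.27 (adjusted p = 0.0403) was lost with any of 7 libraries left out. Tcf4 was higher by 0.82 ± 0.13 (adjusted p = 0.0181), with overlapping groups. Monocyte and macrophage genes had 3 of 24 higher (12.5%), Ccr2, Fn1 and Vcan, with a median of 0.28. Groups of all 3 genes overlapped before centring. The Ccr2 and Fn1 calls were each lost with any of 7 libraries left out, and the Vcan call without DM replicate 1, Npm1c replicate 2 or WT replicate 2. The 3 monocyte markers together covered 3625 to 6564 bases with the allele and 3277 to 5695 without it. Neutrophil genes had a median of 0.34 with none of 22 higher and 1 lower (4.55%), Fcnb. B-lymphoid genes had 1 of 19 higher (5.26%), Bank1 (1.04 ± 0.12, adjusted p = 0.00976). The B cell markers together covered 2628 and 3675 bases in Npm1c and 5826 and 9844 in DM libraries, against 4001 and 2278 in WT and 2951 and 3333 in Flt3-ITD libraries. Only the DM libraries thus lay above those without the allele. T and NK cell genes had 1 of 25 higher (4%), Klrb1c, and stromal and endothelial genes 1 of 17 lower (5.88%), Myl9. The Myl9 call was lost with any of 7 libraries left out.

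Interferon response genes had 3 of 37 higher (8.11%, beside 5.27% of all genes), Mx1 (1.64 ± 0.31, adjusted p = 0.0258), Trim30a (1.54 ± 0.31, adjusted p = 0.0297) and Gbp3 (0.52 ± 0.10, adjusted p = 0.0265). Lower was 1 gene (2.7%, beside 3.6% of all genes), Oas3 (-0.52 ± 0.09, adjusted p = 0.0229). Mx1 covered 1217 and 805 bases in Npm1c and 954 and 1430 in DM libraries, against 321 and none in WT and 363 and 332 in Flt3-ITD libraries, with no overlap. The list's median of 0.02 was close to that of all genes, and Irf7 (0.02, adjusted p = 0.949) and Isg15 (0.55, adjusted p = 0.246) did not pass. The Mx1, Trim30a, Gbp3 and Oas3 calls were each lost with 5 or more of the 8 libraries left out.

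Genes tied to nucleophosmin and nuclear export had a median of -0.20, with 3 of 19 lower (15.8%, beside 3.6% of all genes) and none higher. The lower ones were Kmt2a (-0.67 ± 0.10, adjusted p = 0.0171), Dot1l (-0.56 ± 0.14, adjusted p = 0.0493) and Trp53 (-0.54 ± 0.11, adjusted p = 0.0294). Kmt2a, which encodes a histone methyltransferase that activates HOX genes, covered 2802 and 2936 bases in Npm1c and 2238 and 2780 in DM libraries, against 5639 and 4918 in WT and 3154 and 4525 in Flt3-ITD libraries. The Dot1l call was lost with any of the 8 libraries left out and the Trp53 call with any of 7. The Kmt2a groups did not overlap, and its call was lost without DM replicate 1, Npm1c replicate 2 or WT replicate 2. In JAK-STAT and FLT3 signalling, Socs6 (1.02 ± 0.20, adjusted p = 0.0282) and Spry2 (0.49 ± 0.12, adjusted p = 0.0451) were higher and Stat5a (-0.88 ± 0.11, adjusted p = 0.0115) and Flt3l (-0.51 ± 0.12, adjusted p = 0.0428) lower, of 36 genes. Each direction was 5.56% of the list, beside 5.27% of all genes higher and 3.6% lower. The Spry2 call was lost with any of the 8 libraries left out, the Flt3l call with any of 7 and the Socs6 call with any of 5. Stat5a covered 1044 and 1412 bases in Npm1c and 989 and 1149 in DM libraries, against 3017 and 2587 in WT and 1579 and 2332 in Flt3-ITD libraries, a difference without overlap that stood with each library left out. Flt3 itself had 5077 and 5401 bases in Npm1c and 7053 and 9668 in DM libraries, against 6008 and 3918 in WT and 4313 and 4311 in Flt3-ITD libraries (0.54 ± 0.15, adjusted p = 0.0704), with overlapping groups.

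Tet2 was the 1 of 16 DNA methylation genes that was higher (6.25%, beside 5.27% of all genes). It covered 12546 and 14805 bases in Npm1c and 9192 and 9814 in DM libraries, against 9845 and 7918 in WT and 4770 and 4591 in Flt3-ITD libraries. The rise of 0.84 ± 0.11 (adjusted p = 0.0111) stood with each library left out, and the adjusted p was 0.0523 without centring. The Tet2 groups overlapped before centring, and the region over the Tet2 promoter shifted by 0.23 without passing the test (adjusted p = 0.212). Klf6 was the 1 of 24 AP-1 and immediate early genes (4.17%) that was higher (0.71 ± 0.16, adjusted p = 0.0388), and of 30 heat shock chaperone genes Hspa1a alone (3.33%) was called. With single libraries left out in turn, the Klf6 call stood only without WT replicate 1. None of 17 housekeeping genes passed, beside 8.88% of all genes, while 2 of 37 housekeeping regions, both near Ywhaz, were narrower (5.41%, beside 2.45% of all regions).

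The 10 genes with the largest falls whose groups did not overlap after centring were Muc6, Klhdc8a, Nlrp6, Mdk, Npb, Car15, Tgfb1i1, Ly6g5c, Cyp1a1 and Ak1, none of them on a list. Mdk, which encodes the growth factor midkine, covered 238 and 245 bases in Npm1c and 212 and none in DM libraries, against 1914 and 1617 in WT and 522 and 995 in Flt3-ITD libraries. It fell by 1.89 ± 0.25 on this scale (adjusted p = 0.0119) and stayed lower with each library left out. Nlrp6, an inflammasome sensor gene, had no peak in Npm1c and DM libraries and 882 and 829 bases in WT and 534 and 260 in Flt3-ITD libraries. Npb, a neuropeptide gene, likewise had none with the allele and 253 to 786 bases without it.

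**Figure D5:**
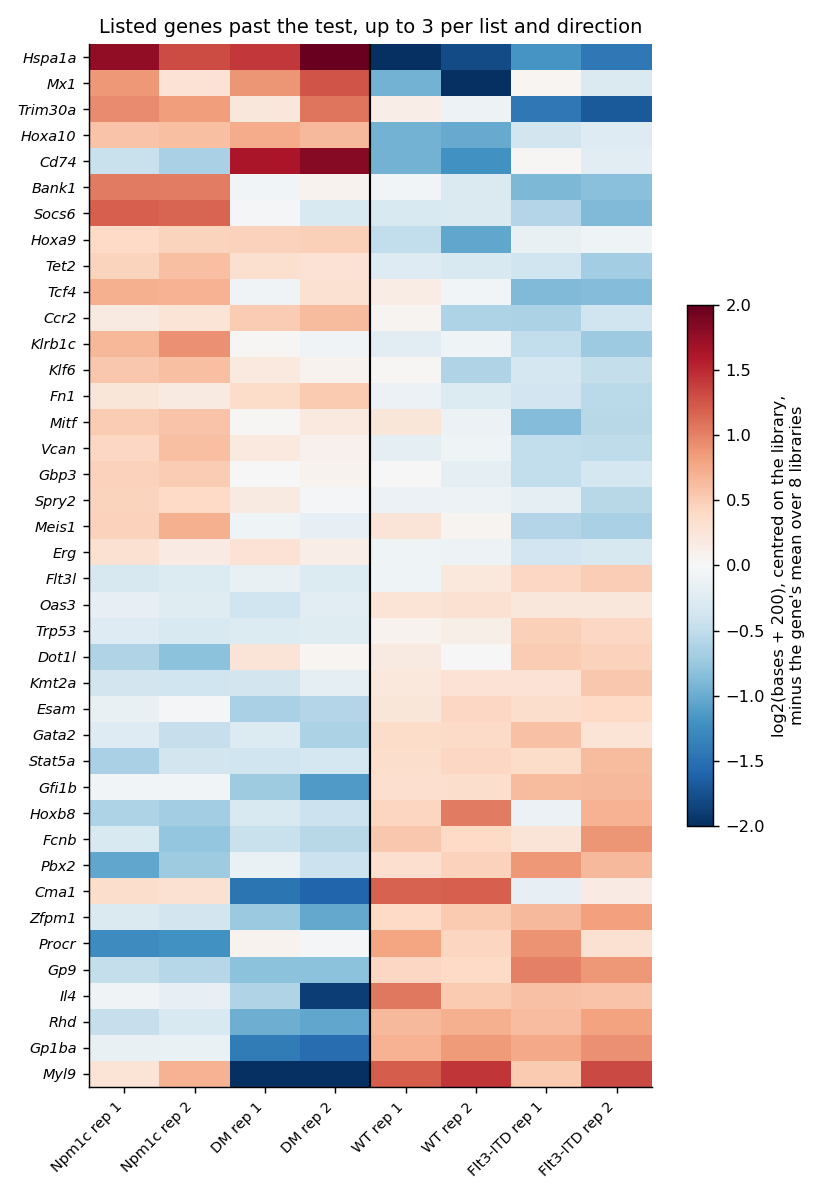
Listed genes past the test, up to 3 per list and direction, ordered by their shift, with log2(bases + 200) centred on the library minus the gene's mean over 8 libraries in colour. Columns left of the line are the Npm1c and DM libraries, those right of it WT and Flt3-ITD, and Hoxa10, Gp9 and Rhd hold 1 colour on each side while Cd74 and Myl9 differ most between Npm1c and DM.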

How the data were processed

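ATAC-seq peak lists of 8 HSPC libraries were analysed. The authors deposited 3 columns per peak, the chromosome, the start and the end, so no score or height was available and every value here is a presence or a number of bases. Per the submitters' processing notes, reads were handled with Bowtie2 and MACS2 on mm10; versions, filters and read depth are not given in the sources used here. Peaks on chromosomes 1 to 19 and X were merged, and each region was assigned to the gene holding its midpoint or the nearest within 100 kb (RefSeq, 94.8% assigned). Widths (log2) and bases per gene (log2 of bases + 200, genes with peaks in at least 2 libraries) were centred on each library's median and fitted with limma 3.58.1 in R 4.3.3, with both alleles as terms and Benjamini-Hochberg adjusted p < 0.05. Every adjusted p printed for a region or gene comes from that limma fit across all regions or genes unless an exact test is named. The fits were tested on simulated data. Library measures were compared by exact two-sided permutation. A call stood or was lost by whether it passed when a library was left out.

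Named were, per direction, the 10 regions or genes ranked highest (by width percentile for regions called on 1 side, otherwise by the size of the shift among those whose groups did not overlap), up to 3 per list and direction, listed genes and genes with at least 2 regions called on 1 side, and Npm1, Flt3 and Mx1. The members and the 18 gene lists were chosen with earlier results of these data known. Of 427 listed genes 425 were found. Alternatives included other merging rules, lists cut to equal length, no centring, quantile normalisation, no Flt3 term, a replicate block and leaving out each library. Results for a few genes are not reported here.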

Additional observations from a re-analysis of the deposited data

Results flagged for a closer look

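Among 248 groups of 4 libraries examined, 10 held a library that stood apart from the other 3 by Dixon's test, for which chance gives about 1 in 20. On the centred log2 width scale these were DM replicate 2, low at Mmp8 (9.05), Npm1c replicate 1, high at the Gata2 promoter region (9.67), WT replicate 1, high at App (9.45), Flt3-ITD replicate 1, low at a Zfpm1 region (chr8:122317705-122320027, 9.54) and at Uqcr11 (10.42), and Flt3-ITD replicate 2, high near Hspa1b (chr17:34951851-34953497, 10.75). On the centred scale of covered bases per gene they were Npm1c replicate 1, low at Tlr7 (9.43), DM replicate 2, high at Kmt2a (11.64), WT replicate 2, high at Tgfb1i1 (10.59), and WT replicate 1, high at Il4 (10.68).

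The allele's shift differed between the Flt3 backgrounds at 8 of the 62 named regions and 17 of the 59 named genes, as the log2 shift in DM against Flt3-ITD minus that in Npm1c against WT. Over all regions and genes tested, named or not, it differed in 9.73% and 22.4%. Among regions the difference was -1.16 at Cd34, -1.20 at Pak4, -1.40 at Zfpm1 (chr8:122329215-122331636), -1.01 at Uqcr11, -0.68 at Tet3, -1.0 near Ywhaz (chr15:36876022-36876655), -1.19 at Gata2 (chr6:88197947-88199234) and 1.39 near Zap70. Among genes that were higher with the allele it was 1.66 for Iqck, 1.83 for Frmpd4, 1.75 for Khdc1a, 1.41 for Itgb8, 1.30 for Cd74 and 1.33 for Trim30a, but -0.55 for Hoxa10 and -0.90 for Socs6. Among genes that were lower with it the difference was -1.31 for Tgfb1i1, -0.65 for Rhd, -0.83 for Zfpm1, -1.17 for Gfi1b, -1.38 for Gp1ba, -0.83 for Gp9 and -2.82 for Myl9, but 2.27 for Car15 and 1.26 for Procr. The 5 erythroid and platelet genes in this paragraph had the lower shift in the DM background, and the part of erythroid cells in this was not tested.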

How the results depend on the processing

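Centring, the Flt3 term and single libraries moved the counts most. Counts of wider and narrower regions were 14 and 55 without centring, 9 and 22 without the Flt3 term and 352 and 417 at a mean width of at least 500 bp. With a separate term per background, fitted to all libraries, they were 1805 and 1310 in Npm1c against WT, and 2000 were narrower in DM against Flt3-ITD. Regions with the lower shift in DM were 1234 with lists of equal length, 200 without centring and 842 with quantile normalisation, and lists of equal length gave 456 regions called only without the allele. Genes higher and lower numbered 55 and 63 without centring, 3 and 13 without the Flt3 term and 542 and 362 with a pseudocount of 50 bases, and 561 were higher within 10 kb. The separate terms per background gave 2079 and 1441 genes in DM against Flt3-ITD and 2015 and 2176 in Npm1c against WT. The difference between backgrounds per gene, added after seeing the data, passed in 1993 and 1633 genes. The cause was not tested. Replicate numbers shared between groups did not pair the libraries (correlations of deviations -0.12 to 0.13), and with a replicate block 365 regions were wider, 289 narrower, 339 genes higher and 190 lower. Leaving out 1 library gave 164 to 1278 regions called only with the allele and 231 to 882 only without, 16 to 1527 wider and 26 to 723 narrower, 224 to 996 and 512 to 1998 with a higher or lower shift in DM, 121 to 1034 genes higher and 65 to 426 lower. The difference in means with minus without the allele then ran from -2965 to 9398 peaks, -3.24 to 5.42 Mb and -4.83 to 3.5 bp of median peak width. Of the named regions and genes, 8 of 62 and 18 of 59 passed without centring. Peak lists give no read depth, so a missing peak may lie below the calling threshold.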

Other observations

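The regions at Hspa1a and Hspa1b, which are near-identical gene copies, had the same geometry. The first reached 1341 bp beyond the lower-coordinate end of Hspa1a and 681 bp into it. The second reached 1523 bp beyond the same end of Hspa1b and 463 bp into it. Both genes lie on the minus strand, so this is their downstream end and not their promoter.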
